A study of Arabidopsis thaliana with 12 samples.

Results

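A value of exactly 0 in 3 or more of 12 arrays was found at 116 of the 688 probes that carry the name of 1 gene and were eligible, or 16.9%. These 116 probes stand for 116 different genes and are the subject here. They were chosen from the deposited signals themselves, by counting zeros over both genotypes together. The platform annotation gives exactly 1 gene for 692 of the 3439 probes, and SBPASE, AGL54, AT5G55220 and PIFI were left out by the rule. None of those 4 had more than 2 zeros. The zeros of these genes are therefore given as a description, without a test.

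The arrays compared Arabidopsis thaliana plants of the aap6 mutant, ecotype Wassilevskija (6 arrays), with WT plants of the same ecotype (6 arrays). The mutant lacks AAP6, an amino acid transporter that the labels place in the xylem parenchyma. Total RNA was measured, and neither the tissue, the plants' age and growth, the kind of mutation nor the type of array is given in the sources used here. Arrays carry the numbers 1 to 6 in each genotype. The labels do not tell whether these are different plants, and p-values here reflect a spread between arrays that could be technical alone.

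AAP6 belongs to the amino acid permeases, plasma membrane proteins that import amino acids together with protons. On an array, a listed signal of 0 usually means that a spot did not exceed its local background. It sets an upper limit on the hybridization signal and does not show that a gene is silent. In tissue RNA, fewer cells that express a gene and less of its RNA per cell cannot be told apart.

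Deposited signals ran on a linear scale from 0 to 100, and 4318 of 41268 values (10.5%) were 0. Among the 116 genes 825 of 1392 values (59.3%) were 0. Array medians over all probes lay between 0.234 and 0.265 in aap6 and between 0.142 and 0.164 in WT, so the genotypes differed in overall signal as well as in zeros. Arrays 1 and 2, 3 and 4, and 5 and 6 of a genotype correlated at 0.993 to 0.998 across probes on the linear scale, against 0.955 to 0.980 for other arrays of a genotype. For tests each such pair was averaged, which left n = 3 samples per genotype. The number of arrays limits the precision. The mutated gene could not be followed, since the platform annotation names it at no probe.

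The 116 genes were dim where they were above 0. The median of their signals above 0 was 0.0496, against 0.229 for the other named probes. In 68 of the 116 genes no array reached 0.1, and in 9 genes at least 1 array reached 0.3. Of the genes' signals above 0, 32.6% were no higher than 0.0276, the 5th percentile of all signals above 0, and 3.42% of those of the other named probes were. By number of zeros, 40 genes had 3 or 4, 31 had 5 to 8, 20 had 9 or 10, 9 had 11 and 16 had 12.

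Zeros were more frequent in WT than in aap6. The arrays labelled aap6 had 53 to 69 of the 116 genes at 0, with a mean of 60.8 ± 6.43 (SD, n = 6 arrays), and the WT arrays 60 to 90, with a mean of 76.7 ± 10.6. The ranges overlapped. In all, the genes had 365 zeros in aap6 and 460 in WT, 1.26 times as many in WT. Within each genotype the fewest were in arrays 5 and 6.

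**Figure D1:**
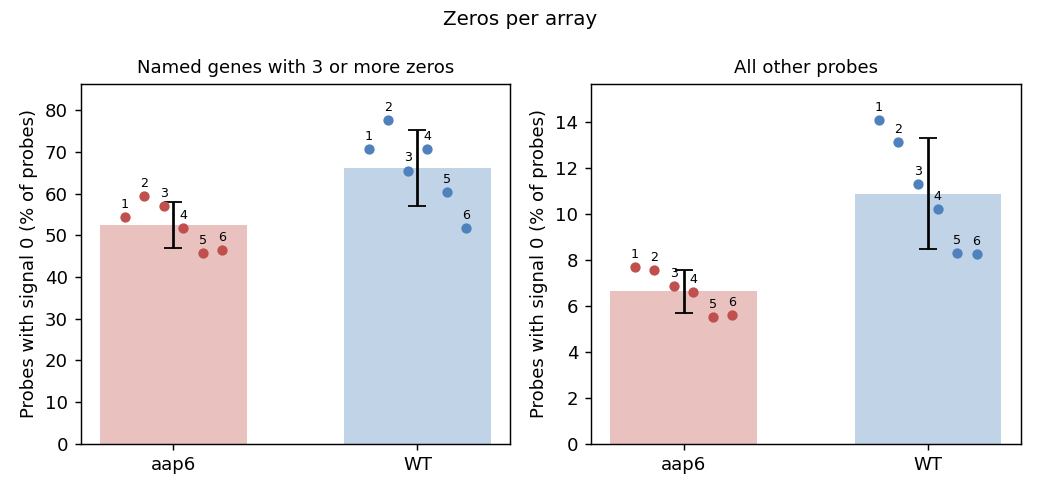
Share of probes with a signal of 0 in each array, in percent, for the 116 named genes (left) and all 3323 other probes (right), with aap6 before WT. Points are arrays with their numbers, bars the mean over 6 arrays and error bars the SD. The aap6 arrays lie between 45.7% and 59.5% at the 116 genes and the WT arrays between 51.7% and 77.6%.

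The same comparison was tested at the probes that the rule did not choose. These include 572 named probes that the rule's count had limited to 0 to 2 zeros, so the test is not wholly free of the rule. At the 3323 other probes, the aap6 pairs averaged 253, 223.5 and 184.5 zeros per array and the WT pairs 452.5, 358 and 275. The mean was 220.3 ± 34.4 in aap6 and 362 ± 88.8 in WT (SD, n = 3 each), and every aap6 pair was below every WT pair. An exact permutation test over the averaged pairs, two-sided, gave p = 0.1, the smallest that 20 arrangements allow, so this design cannot reach 0.05. With the replicate number as a block over 12 arrays, an exact sign-flip test gave p = 0.0313, and with the 12 arrays as separate samples an exact permutation test gave p = 0.00216, both the smallest possible there. Both count the closely correlated neighbouring arrays as separate samples, so they do not replace the test over averaged pairs. Outside the 116 genes WT had 1.64 times as many zeros as aap6. The lower array medians of WT moved with its zeros, and their part in the difference was not tested.

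Gene by gene, 24 of the 116 had more zeros in aap6 than in WT, 57 had more in WT and 35 had equal numbers. The 412 probes with 3 or more zeros that have several gene names or none divided in a similar way, with 18.0% having more zeros in aap6, 54.6% more in WT and 27.4% equal, against 20.7%, 49.1% and 30.2% of the 116. The counts differed by at most 1 array in 71 of the 116 genes.

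**Figure D2:**
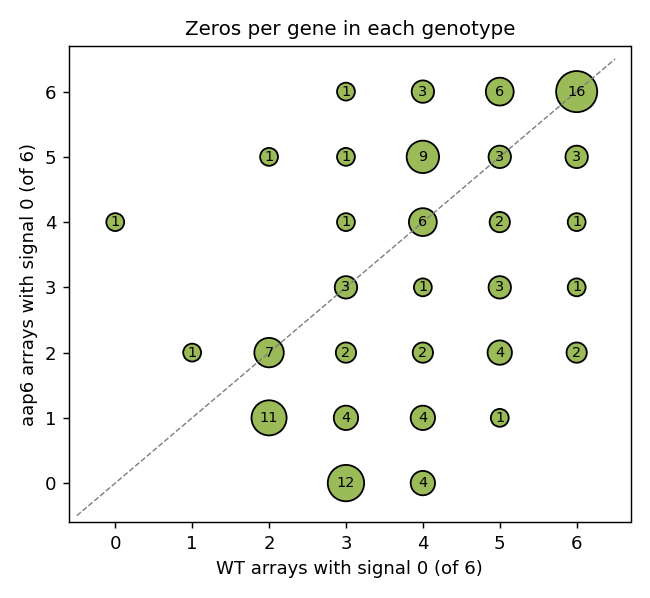
Number of aap6 arrays (vertical axis) and of WT arrays (horizontal axis) in which each of the 116 genes had a signal of 0. The number in each circle counts the genes there, circle area grows with it and the dashed line marks equal counts. The 16 genes at 0 in all 12 arrays stand at the upper right, and 12 genes stand at 3 WT arrays and 0 aap6 arrays.

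A single gene was at 0 in most arrays of aap6 (4 or more of 6) and above 0 in every WT array. This was AT1G76450, which encodes a PsbP-domain protein of the thylakoid lumen, related to a subunit of the oxygen-evolving complex of photosystem II. Its aap6 signal was 0 in arrays 1, 2, 5 and 6 and measured 0.0316 and 0.0636 in arrays 3 and 4. Its WT signals in arrays 1 to 6 were 0.0162, 0.00163, 0.130, 0.0398, 0.0746 and 0.0571. The signals above 0 of the genotypes overlapped, and arrays 3 and 4 of aap6 were higher than arrays 1 and 2 of WT. Over all 3439 probes, 1 met this description (0.0291%), or 0.189% of the 528 probes with 3 or more zeros, and that probe was AT1G76450 itself.

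The opposite description, at 0 in most WT arrays and above 0 in every aap6 array, fitted 4 of the 116 genes, or 3.45%. Of all 3439 probes 39 met it (1.13%), and of the 528 probes with 3 or more zeros 7.39% did. Among the 412 probes with several gene names or none and 3 or more zeros the share was 8.50%. The share among the 116 genes was thus no larger than among those probes.

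AT3G26730, of the RING/U-box protein family that includes many ubiquitin ligases, showed the widest gap. It measured 0.0948 to 0.224 in aap6, with a median of 0.142. In WT it was 0 in arrays 2, 4, 5 and 6, with 0.0179 and 0.0276 in arrays 1 and 3. Every aap6 array was above every WT array.

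AT4G31210, a type IA DNA topoisomerase, which relaxes supercoiled DNA by cutting 1 strand, measured 0.0709 to 0.206 in aap6, with a median of 0.139. In WT it was 0 in the same arrays, 2, 4, 5 and 6, with 0.0212 in array 1 and 0.0998 in array 3. The genotypes overlapped through aap6 array 4 and WT array 3.

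AT1G75260 measured 0.0123 to 0.190 in aap6, with a median of 0.0470. In WT it was 0 in arrays 1 to 4, with 0.00253 and 0.0960 in arrays 5 and 6. Both genotypes were highest in array 6, and the WT value there exceeded 4 of the aap6 values.

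AT3G43610 encodes a protein of the gamma-tubulin complex family, which nucleates microtubules. It measured 0.00826 to 0.0689 in aap6, with a median of 0.0138, and in WT it was 0 in arrays 3 to 6, with 0.00745 and 0.0229 in arrays 1 and 2. All of these signals were faint, array 2 was the highest in both genotypes, and the genotypes overlapped.

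**Figure D3:**
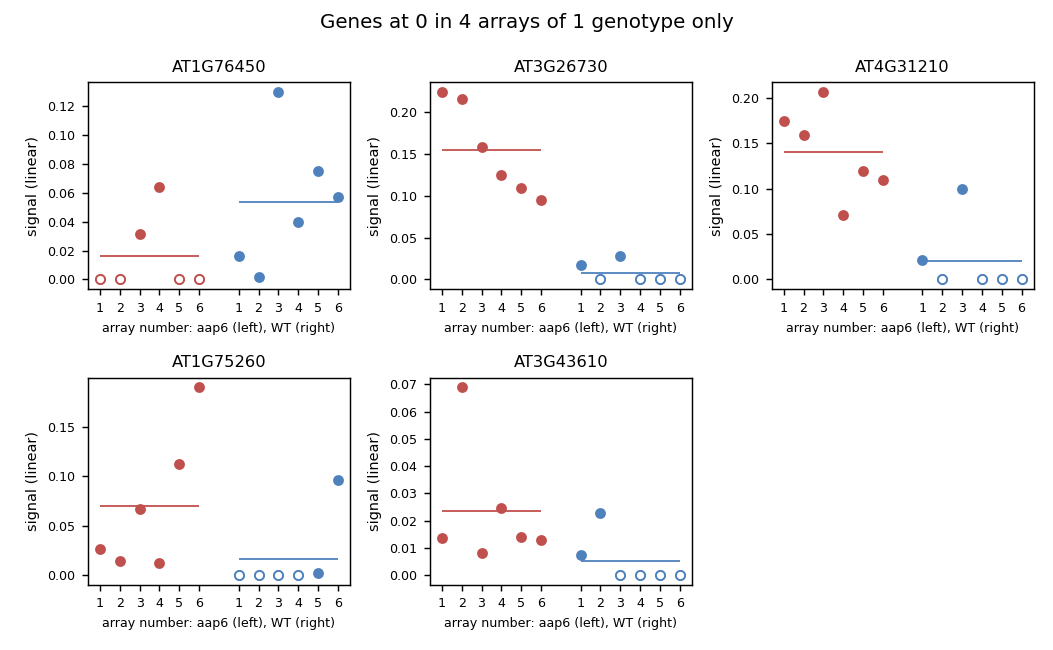
Deposited linear signal of the 5 genes at 0 in 4 arrays of 1 genotype and above 0 in all arrays of the other, with arrays 1 to 6 of aap6 on the left of each panel and of WT on the right. Open circles are values of 0 and lines are means over 6 arrays. AT1G76450 has its zeros in aap6 and the others in WT, and in AT3G26730 the genotypes do not overlap.

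Counting also genes with exactly 3 zeros in WT, 16 of the 116 had all their zeros in WT (13.8%), and 73 of the 412 other probes with 3 or more zeros did (17.7%). No gene had 3 zeros in aap6 and none in WT. Of these 16 genes, 14 were at 0 in WT array 2 and 3 in WT array 6. Their median aap6 signals ran from 0.0138 to 0.215, and the lowest of these medians lay below 0.0276, the 5th percentile of all signals above 0.

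Z-ISO, the 15-cis-zeta-carotene isomerase of carotenoid synthesis, measured 0.124 to 0.212 in aap6, with a median of 0.158, and in WT 0 in arrays 2, 3 and 4, with a median of 0.0322 and a highest value of 0.151. CHL, the chloroplastic lipocalin, which protects thylakoid lipids, measured 0.0751 to 0.181 in aap6, with a median of 0.101, and in WT 0 in arrays 1, 2 and 3, with a median of 0.0275 and a highest value of 0.183. For both genes the WT range reached into the aap6 range.

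AT1G62010, of the mTERF family of organelle transcription regulators, measured 0.109 to 0.185 in aap6, with a median of 0.163, and in WT it was 0 in arrays 3, 4 and 5, with a highest value of 0.119. Here a single WT array, array 1, lay within the aap6 range.

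AT4G12740, a DNA glycosylase of base excision repair, measured 0.0945 to 0.337 in aap6, with a median of 0.215, and in WT 0 in arrays 2, 3 and 4, with a highest value of 0.217. AT3G15140, an exonuclease of the ERI1 type, measured 0.0496 to 0.146 in aap6 and at most 0.0331 in WT, without overlap. AT2G37000, the TCP transcription factor TCP11, measured 0.0268 to 0.258 in aap6 and at most 0.0657 in WT.

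SAP (STERILE APETALA), a regulator of flower development, measured 0.0171 to 0.103 in aap6 and at most 0.0700 in WT. DRT100, named for DNA-damage repair and toleration, measured 0.0160 to 0.0523 in aap6 and at most 0.0632 in WT. AT3G11960, related to the A subunit of the cleavage and polyadenylation factor, measured 0.0158 to 0.0593 in aap6 and at most 0.101 in WT. In DRT100, AT3G11960, CHL and AT5G19150 the highest WT array was above every aap6 array although 3 WT arrays were at 0. AT5G19150, a carbohydrate kinase-like protein, AT1G16080 and AT4G03150 complete the group. Their aap6 medians were 0.0406, 0.0992 and 0.1003, against WT medians of 0.000482, 0.00261 and 0.0196. All these are deposited signals, and array medians were lower in WT. After quantile normalization, in the limma fit described below, none of the 16 genes passed. The log2 change was below 0 in SAP, DRT100, CHL, AT5G19150, AT3G43610 and AT3G11960, down to -0.48 in AT3G11960. In the rest of the 16 it was above 0, from 0.11 in AT3G15140 to 1.05 in AT3G26730.

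Beyond these, 3 genes differed by 4 zeros between the genotypes without being above 0 throughout either. SRX, sulfiredoxin, which restores over-oxidized peroxiredoxins in chloroplasts and mitochondria, was 0 in all 6 WT arrays. In aap6 it was 0 in arrays 3 and 4 and measured 0.0315, 0.0155, 0.0535 and 0.0601 in arrays 1, 2, 5 and 6. AT1G33250 was also 0 in all WT arrays, and in aap6 it was 0 in arrays 1 and 2 and measured 0.122, 0.0406, 0.105 and 0.0827 in arrays 3 to 6. In both genes the aap6 zeros fell in arrays of neighbouring numbers. AT1G73120 was 0 in aap6 array 2 alone, where its other values ran up to 0.0431, and in WT it was 0 in 5 arrays, with 0.0354 in array 6.

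Of the 116 genes, 10 were at 0 in all aap6 arrays and in fewer than 6 WT arrays, and 7 were at 0 in all WT arrays and in fewer than 6 aap6 arrays (8.62% and 6.03%). Of the 412 other probes with 3 or more zeros these were 31 and 42 (7.52% and 10.2%), a lean the other way. CKS, the CMP-KDO synthetase of cell wall sugar metabolism, was at 0 in aap6 arrays 3 and 4 and in 5 WT arrays. It was brightest in array 1 of both genotypes, with 0.148 in aap6 and 0.0261 in WT. CCB3, an assembly factor of the cytochrome b6f complex, was at 0 in 3 arrays of each genotype and reached 0.0637 in aap6 and 0.0444 in WT, both in array 6. RALFL32, a secreted RALF-type signalling peptide, was at 0 in 4 aap6 and 5 WT arrays and was highest in aap6 array 1.

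At the other end, 16 genes were at 0 in all 12 arrays. AT5G52970 encodes a thylakoid lumen protein, AT5G65220 the plastid ribosomal protein L29, UPP the uracil phosphoribosyltransferase of pyrimidine salvage, and AT4G22830 a YCF49-like protein. AT1G11820 encodes a glycosyl hydrolase acting on beta-glucans, AT2G27680 an aldo/keto reductase-type oxidoreductase, AT5G38360 an alpha/beta hydrolase, AT1G35340 a protein with a Lon protease domain and AT1G24530 a WD40 repeat protein. AT5G05330 has an HMG box and AT5G63460 a SAP domain, both DNA-binding motifs. The remaining 5, AT1G29040, AT4G15790, AT1G54520, AT3G50350 and AT1G07970, are named by locus only. No difference between genotypes can be read from these probes. Such probes were as frequent elsewhere, at 12.1% of the 412 probes with several names or none and 3 or more zeros, against 13.8% of the 116 genes.

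Another 9 genes were above 0 in a single array, 3 of them in aap6 and 6 in WT, with signals of 0.00493 to 0.0490. IAA31, a member of the Aux/IAA repressors of auxin response, measured 0.0229 in WT array 4 alone. ILA (ILITHYIA), a HEAT-repeat protein of immunity and translation control, measured 0.0490 in WT array 5 alone. AT5G65360, a gene for histone H3.1, measured 0.00773 in aap6 array 1 alone. Histone H3.1 is encoded by several near-identical genes, so the signal at that probe cannot be assigned to 1 copy. The others, all within that range, were AT1G29070 (plastid ribosomal protein L34), AT4G02580 (a subunit of mitochondrial complex I), AT1G10310, AT3G06200 (a guanylate kinase), AT1G73430 (a subunit of the COG complex of the Golgi) and AT5G48270.

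A second pattern crossed the genotypes and went with the array number. Of the 100 genes with 3 to 11 zeros, 10 had zeros at exactly the same numbers in aap6 and WT. Of the 362 probes with several names or none and 3 to 11 zeros, 36 did (9.94%), so this was no more frequent among named genes. Over the 100 genes, an aap6 array and the WT array of the same number were in the same state, 0 or above 0, at 64.5% of genes on average, with a range of 55% to 80% over 6 pairs of arrays. Arrays of different numbers and genotypes shared the state at 53.2% (38% to 64%, 30 pairs of arrays). Arrays of 1 genotype shared it at 62.2% for neighbours (1 and 2, 3 and 4, 5 and 6) and at 59.9% otherwise. The array pairs share arrays and the genes were chosen by their zeros, so these shares are a description.

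**Figure D4:**
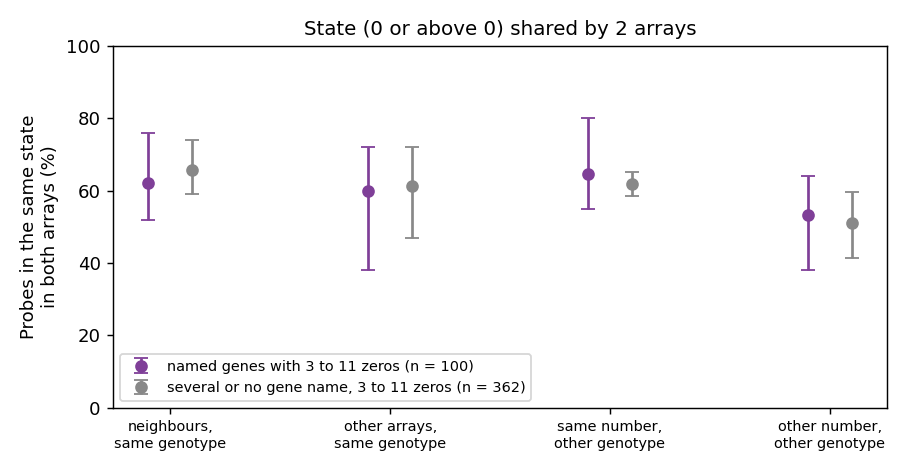
Share of probes that are in the same state, 0 or above 0, in 2 arrays, in percent, by the relation of the arrays. Points are means and bars run from the lowest to the highest pair of arrays, for 100 named genes and 362 probes with several names or none, all with 3 to 11 zeros. Arrays of the same number in different genotypes average 64.5% and 61.7%, and those of different numbers 53.2% and 51.1%.

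The brightest genes, AT1G24240, AT4G38490, AT1G12230 and AT2G46220, went with the array number, though not all of them had zeros at the same numbers in both genotypes. This did not hold for all 9 genes that reached 0.3. Of the others, AT3G15490 was highest at the same number in both genotypes. AT4G12740, RALFL32, AT2G21530 and AT1G32730 were highest at different numbers. AT4G38490 was 0 in arrays 1, 3 and 5 of both genotypes. In arrays 2, 4 and 6 it measured 1.37, 1.18 and 0.553 in aap6 and 1.40, 1.46 and 0.772 in WT. It was the only 1 of the 100 genes whose zeros were all in odd-numbered arrays with every even-numbered array above 0 in both genotypes, and 1 of the 362 other probes was alike. Averaging arrays 1 and 2, 3 and 4, and 5 and 6 hides this difference, since each averaged pair holds 1 zero.

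AT1G24240, of the ribosomal protein L19 family, held the highest signal of all 116 genes. It measured 2.19 in aap6 array 2 and 2.11 in WT array 2, and 0.473 and 0.711 in arrays 6 of aap6 and WT. In arrays 1, 3, 4 and 5 it measured 0.150, 0.0132, 0.157 and 0 in aap6 and 0, 0, 0.0722 and 0 in WT. Both genotypes rank array 2 first and array 6 next.

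AT1G12230, a transaldolase of the pentose phosphate pathway, peaked in array 4, with 0.515 in aap6 and 0.632 in WT, and was next highest in array 2, with 0.204 in aap6 and 0.198 in WT. Its zeros were in aap6 array 1 and WT arrays 1, 3 and 5. AT2G46220 was above 0 in array 4 alone in each genotype, with 0.436 in aap6 and 0.407 in WT. The high values of both genes thus fell at the same array numbers in aap6 and WT. The zeros did so in AT2G46220, while AT1G12230 was above 0 in aap6 arrays 3 and 5.

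**Figure D5:**
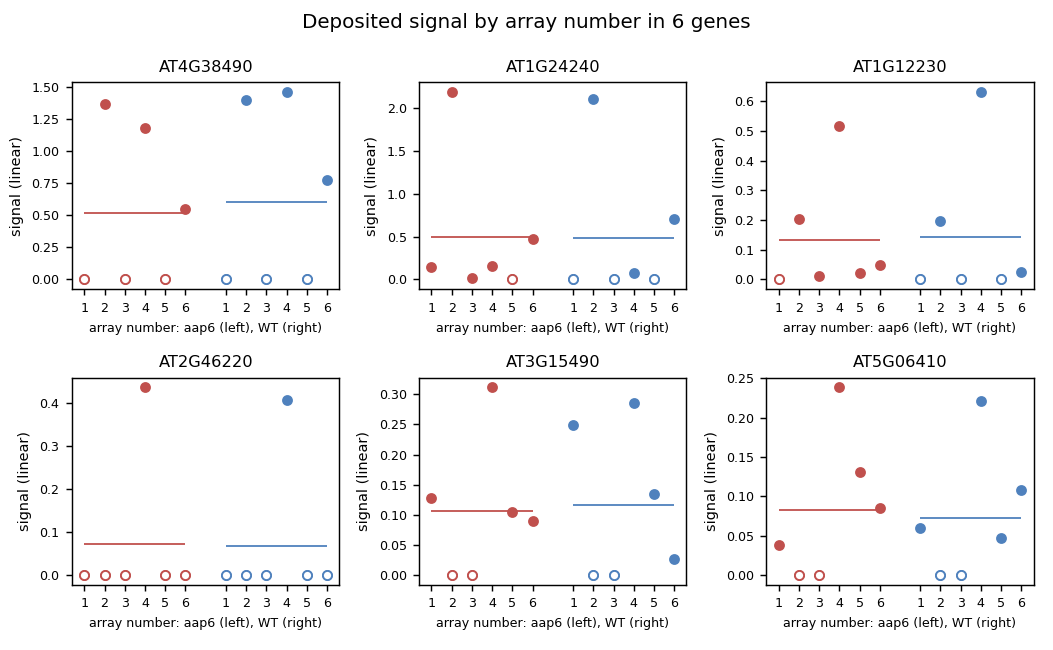
Deposited linear signal of 6 genes in arrays 1 to 6 of aap6 (left in each panel) and WT (right). Open circles are values of 0 and lines are means over 6 arrays. AT4G38490, AT2G46220, AT3G15490 and AT5G06410 have their zeros at the same array numbers in both genotypes.

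The other genes with zeros at the same numbers were dimmer. They were singled out after their values were seen. AT3G15490, a regulator of Vps4 in vesicle sorting, and AT5G06410, an HscB-type co-chaperone of iron-sulfur cluster assembly, were 0 in arrays 2 and 3 of both genotypes and highest in array 4. That array measured 0.311 in aap6 and 0.285 in WT for AT3G15490, and 0.238 in aap6 and 0.222 in WT for AT5G06410. AT2G21530, an FHA-domain protein, AT4G30150, related to the ribosome assembly factor Urb2, and AT3G32940 were 0 in arrays 1 and 2 of both genotypes. In arrays 3 to 6, AT2G21530 measured 0.0357 to 0.180 in aap6 and 0.172 to 0.389 in WT, while AT4G30150 measured 0.153 to 0.210 in aap6 and 0.0289 to 0.0710 in WT. At each of those numbers AT2G21530 was lower and AT4G30150 higher in aap6 than in WT. AT5G19210 (arrays 2 and 4), AT5G25990 (above 0 in array 4 alone) and AT5G66090 (above 0 in arrays 2 and 5 alone) complete the 10.

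Expression was also compared between the genotypes by a limma fit over all 3439 probes, without a filter on dim probes so that every one of the 116 genes was tested. Signals were quantile normalized, and values below 0.0505, zeros included, were raised to that floor. Over all probes 208 passed an adjusted p of 0.05 (6.05%), with 122 higher (3.55%) and 86 lower (2.5%) in aap6. With the averaged pair as a replicate block 47 passed, 40 higher and 7 lower, and with the number as a replicate block over 12 arrays 982 passed, 452 higher and 530 lower. The run over 12 arrays counts neighbouring arrays as separate samples. Of the 116 genes 1 passed, or 0.862%, and it was lower. On the log2 scale 23 of the 116 were above and 53 below no change, and 40 lay at the floor in all 12 arrays. For these 40 the fit could give no difference. Of them 16 had deposited zeros throughout. The others, SRX and AT1G73120 among them, had deposited signals above 0 that normalization and the floor leveled. Over all 3439 probes 1455 were above and 1832 below no change, and 152 lay at the floor throughout. The median log2 change was 0 over the 116 genes and -0.04 over all probes. The floor held 79.1% of these genes' values and 18.2% of all values.

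The gene that passed was AT4G16060, named by locus only. Its deposited signals in arrays 1 to 6 were 0.0468, 0, 0.0111, 0, 0.0530 and 0.0806 in aap6, against 0.124, 0, 0.111, 0.00145, 0.107 and 0.0620 in WT. The genotypes overlapped on this scale. After normalization every aap6 pair lay at the floor, with a mean log2 signal of -4.31, and WT averaged -3.38 ± 0.16 (SD, n = 3). The log2 change was -0.93 ± 0.09 (SE; limma adjusted p = 0.0131), and its size is set by the floor. With every aap6 pair at the floor the aap6 SD was 0, so the SE and the p-value depend on the floor too. With the averaged pair as a block the limma adjusted p was 0.0576, and with the arrays as 12 samples it was 0.0577. Without WT array 1, 2, 3 or 6 it was 0.292, 0.0766, 0.292 or 0.0584, and without aap6 arrays 1 and 2 or 3 and 4 it was 0.0585 or 0.0584. Lower and higher floors, at the 2nd and the 25th percentile, gave log2 changes of -1.68 and -0.24 with limma adjusted p of 0.124 and 0.0678.

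Calls differed with the scaling. With the deposited signals as they stand, where all probes together had a median log2 change of 0.38, 778 probes were higher and 17 lower, and 8 of the 116 genes passed, 7 of them higher. With array medians made equal 176 of 642 probes that passed were higher, and with 75th percentiles made equal 252 were higher and 183 lower. Under each of those scalings AT4G16060 was the 1 gene of the 116 that passed, and it was lower.

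The threshold itself separates like genes. Just inside it, 24 genes had exactly 3 zeros, with mean signals over 12 arrays of 0.0187 to 0.158 and a median of 0.0486. Just outside, 30 named genes had exactly 2 zeros, with means of 0.0304 to 0.259 and a median of 0.0680. The brightest inside were AT4G12740, Z-ISO, AT2G25830, a YebC-type protein, and AT1G62010. The brightest outside were AT5G19940, AT3G20490, AT5G06010 and AT2G01400. AT3G20490 measured 0.214 to 0.359 in aap6, with no zero, and 0 in WT arrays 1 and 3, with at most 0.0659 in the others, so a gene with fewer zeros can show as wide a gap as those inside.

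By locus name, the genes were spread over all 5 chromosomes. On chromosome 1, 43 of 174 eligible named probes were among the 116 (24.7%), on chromosome 5 26 of 141 (18.4%), on chromosome 3 21 of 128 (16.4%), on chromosome 4 14 of 120 (11.7%) and on chromosome 2 12 of 124 (9.68%). In the TAIR10.1 gene order, 5 pairs lay within 10 protein-coding genes of each other. The nearest, 3 genes apart, were AT1G32190 with AT1G32220 and AT2G46190 with AT2G46220. AT1G32190 was 0 in 6 aap6 and 3 WT arrays and AT1G32220 in 2 aap6 and 5 WT arrays, so these neighbours leaned in opposite directions.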

How the data were processed

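The authors deposited a table with an intensity for each probe on each array, and its range shows a linear scale. Background correction, scaling and array type are not given in the sources used here. Each column names its sample. Names are those of the platform annotation, brought up to date with the TAIR10.1 gene table (all 116 genes matched), which served for names and gene order only. Roles without a descriptive name in those tables are textbook background. The planned sorting into functional classes by keyword matched 5 of the 116 genes (CHL, Z-ISO, UPP, CKS and AT5G65360) and was not used. Of the marker lists, 2 of 9 leaf genes (PSBW and PSAN), 0 of 6 root genes and 0 of 5 xylem genes had a probe of their own. PSBW measured 33.4 to 38.0 in aap6 and 27.9 to 46.5 in WT, and PSAN 4.81 to 6.36 in aap6 and 6.88 to 9.87 in WT.

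Members, lists, the averaging of array pairs and the tests were chosen with earlier results of these data known. Signals were quantile normalized, deposited zeros and values below 0.0505, the 10th percentile of the values above 0, were set to 0.0505, log2 was taken, array pairs were averaged and aap6 minus WT was fitted by lmFit and eBayes of limma 3.58.1 (R 4.3.3), with Benjamini-Hochberg adjustment at 0.05 over 3439 probes. The fit was also run on simulated data, and no result of that run is given here. It is therefore no evidence on how the fit treats genes whose values lie mostly at the floor, as those reported here do. Zeros were counted in Python 3.11.15 with exact permutation tests. Pairing by number was checked on deviations from the genotype means, whose correlation was 0.407 to 0.513 for equal numbers, 0.403 to 0.475 for averaged pairs and -0.238 to 0.207 for different numbers. Equal numbers were taken to pair the samples, from the data and not the labels. The main fit and the permutation test over averaged pairs did not use this pairing. Runs with it as a block are given beside them. Genes were named for zeros in 1 genotype, zero counts differing by 4, zeros in all arrays (all 16 named, being tied), the highest signals, a call, closeness to the threshold or a class.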

Additional observations from a re-analysis of the deposited data

Results flagged for a closer look

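The highest and lowest of 6 arrays were checked for standing apart from the others in 102 groups, covering the genes named above and the zeros per array, and 36 groups in 28 genes had such an array. Chance flags about 1 group in 20 where values are unselected. That rate does not apply here, since the genes were chosen for their zeros or their highest signals, and a group with 1 value above 0 is always counted, on its high side. Of the 36 groups 17 were of that kind and 19 were not.

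In 8 genes an array stood apart in both genotypes, and in 7 of these it had the same number. These 7 were AT1G24240 in array 2 (2.19 in aap6, 2.11 in WT), AT5G19940 in array 2 (1.05 in aap6, 0.604 in WT), AT2G46220 in array 4 (0.436 in aap6, 0.407 in WT), AT2G46190 in array 6 (0.294 in aap6, 0.230 in WT), AT3G43610 in array 2 (0.0689 in aap6, 0.0229 in WT), CKS in array 1 (0.148 in aap6, 0.0261 in WT) and AT5G25990 in array 4 (0.0262 in aap6, 0.00603 in WT). RALFL32 stood apart in aap6 array 1 (0.3001) and in WT array 6 (0.0245).

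In aap6 alone it was AT5G66090 in array 2 (0.113), CCB3 in array 6 (0.0637), AT3G11960 in array 5 (0.0593), AT1G29070 in array 4 (0.0251), AT5G65360 in array 1 (0.00773) and AT4G02580 in array 5 (0.00493). In WT alone it was AT1G12230 in array 4 (0.632), AT5G06010 in array 2 (0.280), AT4G31210 in array 3 (0.0998), AT5G19150 in array 6 (0.0979), AT1G75260 in array 6 (0.0960), SAP in array 3 (0.0700), ILA in array 5 (0.0490), AT1G73120 in array 6 (0.0354), IAA31 in array 4 (0.0229), AT3G06200 in array 3 (0.0194), AT1G73430 in array 2 (0.0193), AT1G10310 in array 5 (0.0170), AT5G48270 in array 5 (0.0133) and AT1G32220 in array 5 (0.0110).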

How the results depend on the processing

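The 116 genes differed by -15.8 zeros per array, aap6 minus WT, and every alternative run kept that direction, with differences of -19.8 to -7.67 and of -19.2 to -13.2 with each array left out. Such runs count the deposited values again without rescaling the arrays, and are not separate support for the direction. At the other probes the difference of -141.5 zeros had an exact permutation p of 0.1 over averaged pairs. As 12 arrays the exact permutation p was 0.00216, and with the replicate block over the numbers the exact sign-flip p was 0.0313. Both of these runs count neighbouring arrays as separate samples. Over the 572 named probes with 0 to 2 zeros, from which the rule had removed those with more, the difference was -11.2, a description only. Over all probes outside the 116 genes it was -147.5 to -135.5 without single arrays.

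The limma count of 208 probes was 795 with deposited signals, 642 with equal medians, 435 with equal 75th percentiles, 794 as 12 arrays, 982 with the number as a replicate block and 47 with the averaged pair as a replicate block. Leaving out arrays or averaged pairs gave 39 to 200, with 67, 39 and 105 without aap6 arrays 1 and 2, 3 and 4, or 5 and 6, and 80 and 133 without WT arrays 3 and 4 or 5 and 6. The cause was not tested.

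The 1 call among the 116 genes became 8 with deposited signals. It became 0 in limma with the floor at the 2nd or the 25th percentile, with an offset of 50 and with the averaged pair as a block, where 7, 1, 4 and 7 genes had an unadjusted p under 0.05. It was 0 without the dimmest 25% of probes, since 9 of the 116 were then tested, 1 of them at an unadjusted p under 0.05. Requiring 2 or more zeros gave 2 of 146 genes and requiring 4 or more gave 0 of 92, with 0 unadjusted. Leave-outs gave 0 to 3. There were 3 without WT arrays 1 and 2 (AT4G16060, AT1G76450 and AT3G11960), all lower in aap6, although the zeros of AT3G11960 were all in WT. There were 2 without aap6 array 1 or WT arrays 3 and 4 (AT4G16060 and AT1G63720, each lower), and 0 without WT array 1, 2 or 6 or aap6 arrays 3 and 4. The 1 gene called was AT1G63720, lower, without WT array 3 and AT2G48090, higher, without aap6 arrays 1 and 2. As 12 arrays, with or without the number as a block, the gene called was AT3G26730 and not AT4G16060. Leaving out probes at the floor in all arrays, chosen after seeing the data, kept AT4G16060 (limma adjusted p = 0.0229). Of 30 alternatives AT4G16060 kept its call in 18 and its direction in all 30, from -1.23 to -0.63 over the leave-outs. In the main fit every aap6 pair of this gene lay at the floor, so it could not come out higher in aap6 there. These counts are therefore not separate support for the call.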
